A study of Rattus norvegicus with 14 samples.

Results

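Translation factors are the proteins that load ribosomes onto mRNA and move them along it. The transcripts described here are those whose gene symbol begins with Eif or Eef followed by a digit, and which reached 1 FPKM in 4 or more of the 14 hippocampal libraries. FPKM is a level that counts fragments relative to transcript length and library size. The members were thus chosen by name and by these levels over all groups, with earlier results of these data known. The levels below, and shares of members set beside those of all genes, are a description of them. Of the 22601 genes in the files, 64 symbols matched and 62 were members. Eif4e1b, encoding an eIF4E family protein, stayed below the level (0.0337 to 0.376 FPKM), and the Y-linked gene Eif2s3y was left out by name. The member nearest to the limit was Eef2kmt, which encodes a methyltransferase of elongation factor 2, at 0.983 to 2.09 FPKM and at 1 FPKM or more in 13 libraries. The other 61 members reached 1 FPKM in all 14.

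The tissue came from wild-type Wistar rats of 180 to 220 g. One group of 5 rats received pentylenetetrazole (PTZ), a convulsant that blocks GABA-A receptors, together with Q808, a test compound given only as a code name (PTZ+Q808). A second group of 5 rats received PTZ and vehicle (PTZ), and 4 control rats received vehicle. The labels give no dose, sampling time or sex. The design text counts rats, but no label ties a library to an animal, so p-values measure the spread between these libraries. Replicates are numbered as in the labels, and values per library are listed in that order.

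Eukaryotic initiation starts when eIF2, loaded with GTP, brings the initiator tRNA to the small ribosomal subunit, where eIF1, eIF1A, eIF3 and eIF5 assemble with it. The eIF4F complex, made of the cap-binding protein eIF4E, the scaffold eIF4G and the helicase eIF4A, brings in the mRNA. Cells brake this step by phosphorylating the alpha subunit of eIF2, which then blocks its exchange factor eIF2B, and by eIF4E-binding proteins, which mTORC1 releases from eIF4E. During elongation eEF1A delivers aminoacyl-tRNA and eEF2 moves the ribosome by a codon, under the control of the calcium-dependent eEF2 kinase. In hippocampus these steps are known for supplying the new proteins that lasting synaptic plasticity needs. Only transcript levels were measured here, and neither protein nor phosphorylation.

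The tissue label was checked against markers. Of 10 markers of hippocampal neurons, 8 were at 1 FPKM or more in all 14 libraries. Fibcd1 (0.689 to 3.54 FPKM) and Zbtb20 (0.995 to 4.14 FPKM) were not. The summed level of the 10 was 1564 to 1891 FPKM in PTZ+Q808, 1728 to 1982 in PTZ and 1465 to 1930 in control. Camk2a (619 to 935 FPKM) and Slc17a7 (524 to 821 FPKM) made up most of it, so the sum says little of the other markers. Transcripts of neighbouring tissue differed between libraries. Ttr, made by the choroid plexus, was 329 FPKM in PTZ+Q808 1, 113 in PTZ 2 and 54.5 in control 3, against 1315 to 7125 FPKM in the other 11. Striatal markers summed to 795 FPKM in control 2, and pituitary markers to 687 FPKM in PTZ+Q808 3. Y-linked transcripts were present in 3 of 5 PTZ+Q808, 3 of 5 PTZ and 2 of 4 control libraries. Relative depth, estimated from the steps between low values, was 0.858 to 1.04, with the lowest in PTZ+Q808 2. In bulk tissue fewer cells of a type and less RNA per cell cannot be told apart.

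Translation factor transcripts were abundant and even between libraries. Together they made up 1.25 to 1.37% of all FPKM of a library. By their median over the 14 libraries, 13 members stood at 100 FPKM or more, 38 between 10 and 100 FPKM and 11 below 10 FPKM. Elongation factors led the order. Eef1a1, the ubiquitous form of eEF1A, had a median of 1008 FPKM, Eef2 of 491 FPKM and Eef1a2, the eEF1A form of neurons and muscle, of 427 FPKM. These 3 transcripts held 35.0 to 38.5% of the members' FPKM. Next came Eif1, which guards start codon selection, at 310.5 FPKM, the helicase Eif4a2 at 299.7 FPKM, Eef1g at 262 FPKM and Eif5a at 226 FPKM. At the low end were Eef2kmt (1.3 FPKM), Eif2ak2 (3.4 FPKM), Eif4ebp3 (3.54 FPKM) and Eif2ak4 (3.58 FPKM).

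The coefficient of variation over the 14 libraries had a median of 8.74% among members and of 11.8% among the 12744 genes tested. These sets were not matched by level, so the lower median is not shown to be particular to the members. The coefficient was under 10% for 40 members and over 20% for 4. These 4 were Eif3h (49.9%), Eif4ebp3 (23.0%), Eif2s3 (22.4%) and Eef2kmt (22.0%). Among the least variable were Eif4b, a helicase cofactor (4.37%), Eif1ax (4.73%), Eif4h (4.9%) and Eef2 (5.11%). The plot of levels by library shows the members ordered by role.

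**Figure D1:**
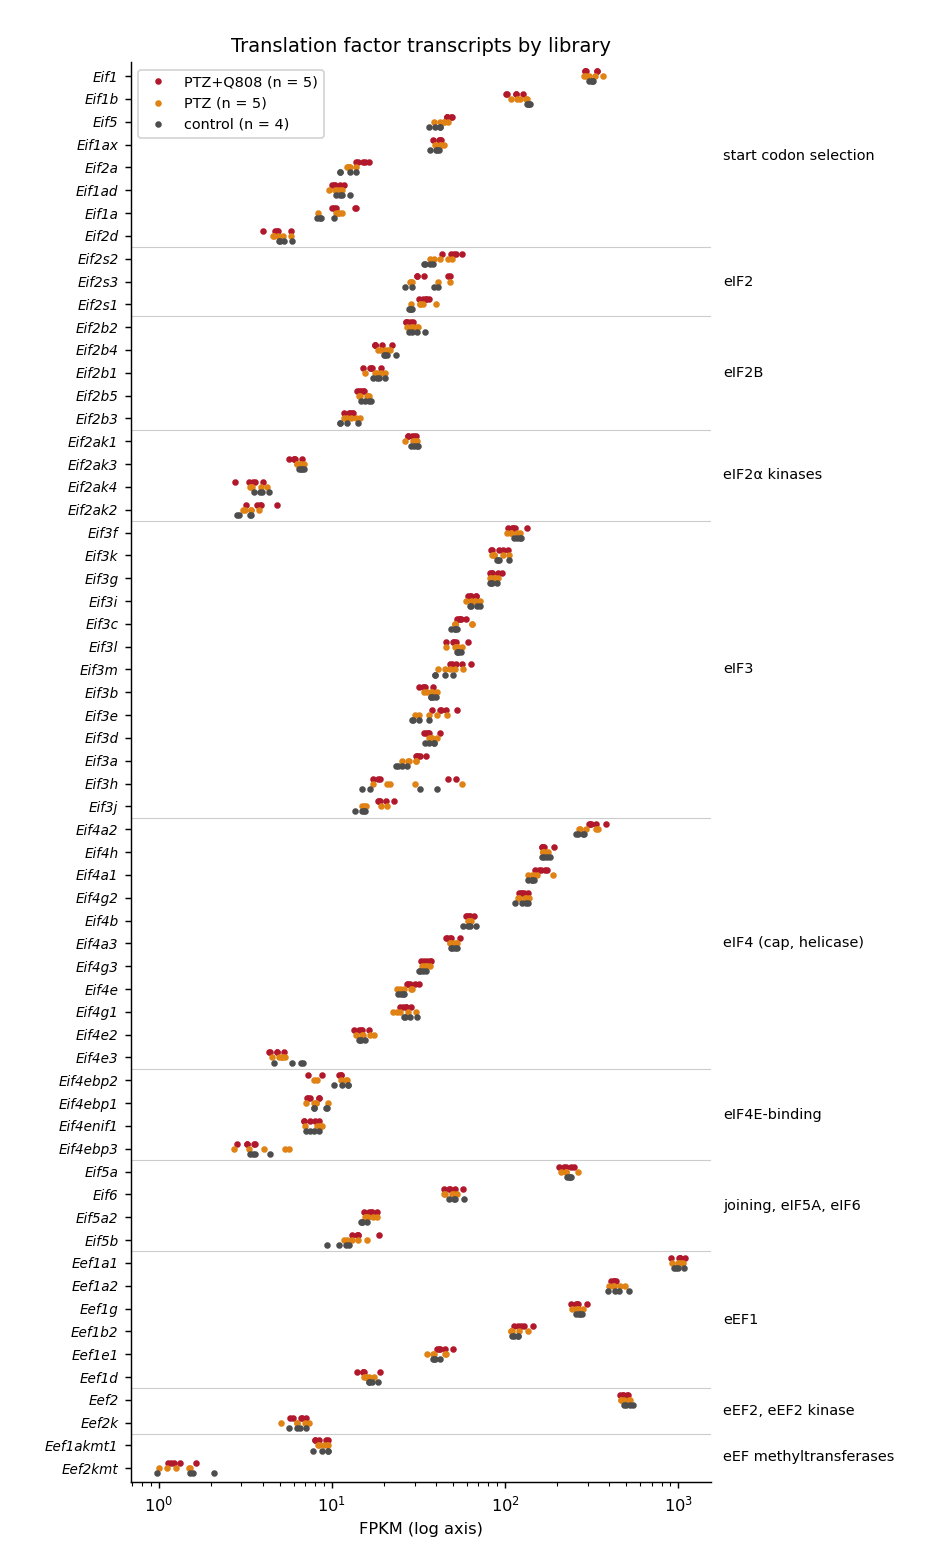
FPKM of the 62 members in each of 14 libraries on a log axis, ordered by role and level, with PTZ+Q808 (n = 5), PTZ (n = 5) and control (n = 4) libraries as points in red, orange and dark grey. Levels span from near 1 FPKM for Eef2kmt to about 1008 FPKM for Eef1a1, and the points of the 3 groups lie close together for most members, while Eif3h and Eif2s3 split into a high and a low cluster.

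PTZ+Q808 was compared with control, which asks what differed from vehicle-treated rats after PTZ and Q808 together. The transcripts of 5 members were called higher and those of 0 lower. These were Eif2s2, Eif3a, Eif3j, Eif5 and Eif2a, which act in the assembly of the initiation complex or in the choice of the start codon. Calls came from limma on the log2(FPKM + 1) scale and required an adjusted p under 0.05 (Benjamini-Hochberg, all 12744 genes). The 5 of 62 members called, all higher, are 8.06%, beside 2.87% of all genes tested in either direction and 1.94% in the higher direction. The 0 members called lower stand beside 0.934% of all genes. Shares of members here and below are descriptions, since the members were chosen with earlier results of these data known. At an unadjusted p under 0.05 in limma there were 18 members (29.0%), against 20.7% of all genes. Of these, 15 were higher (24.2% of members, against 10% of all genes) and 3 lower (4.84%, against 10.7%). Over all members 27 of 62 log2 changes were positive with a median of -0.02, against 5691 of 12744 and a median of -0.02 for all genes.

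Eif2s2 encodes the beta subunit of eIF2 (gene identifier 296302). It had 48.8, 56.4, 50.9, 43.3 and 52.2 FPKM in PTZ+Q808, 42, 38.9, 36.6, 46.9 and 49.6 FPKM in PTZ and 37, 38.4, 33.9 and 34.4 FPKM in control. All 5 PTZ+Q808 libraries lay above all 4 control libraries, and the PTZ libraries fell between, overlapping PTZ+Q808 and reaching down into the control range. Means were 50.3 ± 4.82 FPKM (SD, n = 5) in PTZ+Q808, 42.8 ± 5.4 (n = 5) in PTZ and 35.9 ± 2.15 (n = 4) in control. The log2 change was 0.47 ± 0.0901 (SE, adjusted p = 0.0226) in PTZ+Q808 versus control, 0.23 ± 0.085 (SE, adjusted p = 0.76) in PTZ+Q808 versus PTZ and 0.24 ± 0.0901 (SE, adjusted p = 0.551) in PTZ versus control.

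Eif3a encodes the largest scaffold subunit of eIF3 (gene identifier 292148), the complex that holds the small ribosomal subunit and its partners together. It had 31, 35, 32, 30.7 and 31.2 FPKM in PTZ+Q808, 27.5, 30.7, 25.3, 30.7 and 28 FPKM in PTZ and 25.5, 27.3, 23.4 and 24.2 FPKM in control. The lowest PTZ+Q808 library was above every control library, and PTZ spanned the gap. Against control the log2 change was 0.34 ± 0.066 (SE, adjusted p = 0.0229) in PTZ+Q808 and 0.17 ± 0.066 (SE, adjusted p = 0.564) in PTZ, and PTZ+Q808 versus PTZ gave 0.17 ± 0.0622 (SE, adjusted p = 0.76).

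Eif3j encodes the loosely bound eIF3 subunit that sits near the decoding centre (gene identifier 691947). It had 20.6, 22.9, 18.5, 18.7 and 19 FPKM in PTZ+Q808, 15.3, 15.8, 14.8, 20.8 and 19.2 FPKM in PTZ and 15, 15.4, 13.6 and 15.4 FPKM in control. PTZ+Q808 and control did not overlap, while PTZ held 3 libraries near the control level and 2, PTZ 4 and PTZ 5, at the PTZ+Q808 level. The log2 change was 0.40 ± 0.0959 (SE, adjusted p = 0.0409) in PTZ+Q808 versus control, 0.21 ± 0.0904 (SE, adjusted p = 0.77) in PTZ+Q808 versus PTZ and 0.19 ± 0.0959 (SE, adjusted p = 0.648) in PTZ versus control.

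Eif5 encodes the factor that makes eIF2 hydrolyse its GTP once a start codon is found (gene identifier 108348073). It had 45.8, 49.6, 46.3, 46.3 and 48.7 FPKM in PTZ+Q808, 42.1, 44.2, 38.9, 44.2 and 46.6 FPKM in PTZ and 42.1, 41.9, 39.2 and 36.4 FPKM in control. All PTZ+Q808 libraries were above all control libraries, and the PTZ values ran from the control range into that of PTZ+Q808. Its log2 change was 0.24 ± 0.0582 (SE, adjusted p = 0.0411) against control, 0.13 ± 0.0549 (SE, adjusted p = 0.76) against PTZ and, for PTZ versus control, 0.11 ± 0.0582 (SE, adjusted p = 0.653).

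Eif2a encodes eIF2A, a separate protein that can bring initiator tRNA to the ribosome and is not the alpha subunit of eIF2 (gene identifier 502531). It had 15.5, 16.4, 13.7, 14.1 and 15 FPKM in PTZ+Q808, 12.6, 13.7, 12.2, 12.7 and 12.4 FPKM in PTZ and 12.7, 13.7, 11.2 and 11.1 FPKM in control. The other 4 PTZ+Q808 libraries were above every PTZ and control library, while PTZ+Q808 3, PTZ 2 and control 2 all read 13.7 FPKM, with PTZ+Q808 3 just above control 2 and just below PTZ 2. The log2 change was 0.28 ± 0.0701 (SE, adjusted p = 0.049) in PTZ+Q808 versus control, 0.21 ± 0.0661 (SE, adjusted p = 0.76) in PTZ+Q808 versus PTZ and 0.06 ± 0.0701 (SE, adjusted p = 0.832) in PTZ versus control.

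**Figure D2:**
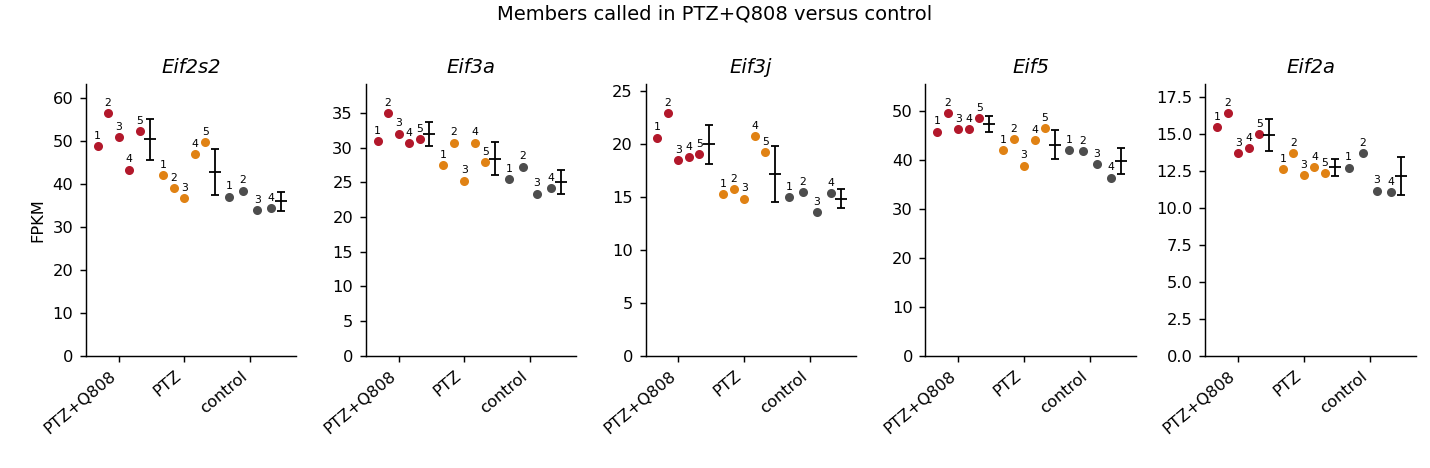
FPKM of the 5 members called in PTZ+Q808 versus control, with 1 point per library numbered by replicate in PTZ+Q808, PTZ and control, and bars at the mean ± SD beside the points. For each gene the 5 PTZ+Q808 libraries sit above the 4 control libraries, with PTZ in between and overlapping PTZ+Q808 or control.

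The calls depended on single libraries. Leaving out control 1, control 3, control 4, PTZ+Q808 1, PTZ+Q808 3 or PTZ+Q808 5 left 0 of the 62 members called, beside 17 to 72 genes in all. Leaving out PTZ 1 kept Eif2s2, Eif3a and Eif3j. Without PTZ 2 or without PTZ+Q808 2 only Eif2s2 and Eif3a of the 5 stayed called, and Eif1b was called lower. Without the 3 libraries low in Ttr 0 members and 0 genes were called in limma, with 1884 genes at an unadjusted p under 0.05. The log2 changes of the 5 were then between 0.23 and 0.45 (adjusted p 0.145 to 0.236), each but that of Eif5 below its value with all libraries. Over the 30 alternatives Eif2s2 and Eif3a were called in 19 each (adjusted p 0.00737 to 0.329 and 0.00728 to 0.305). Eif3j was called in 15 (0.0164 to 0.363), Eif5 in 14 (0.0187 to 0.409) and Eif2a in 10 (0.0162 to 0.433). All 5 log2 changes stayed positive. Rescaling to an equal total per library gave 5 members higher and 1 lower, and quantile normalization 4 higher and 1 lower, the lower one being Eif1b both times.

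Non-overlapping groups were more frequent than calls. All PTZ+Q808 libraries were above all control libraries for 12 members (19.4%, against 4.75% of all genes), namely the 5 called and Eif4a2, Eif4a1, Eif3c, Eif3e, Eif2s1, Eif4e and Eif5b. They were below control for 1 member, Eif1b (1.61%, against 4.17% of all genes). Within the libraries with Y-linked transcripts (3 PTZ+Q808, 2 control) PTZ+Q808 was above control for 15 members (24.2%, against 13.5% of all genes). Within those without them (2 and 2) it was above for 22 members (35.5%, against 22.1%). The 12 members above are in both counts by construction. Eif2s2 was 43.3 to 56.4 FPKM in PTZ+Q808 and 37.0 to 38.4 in control libraries with Y-linked transcripts, and 50.9 to 52.2 FPKM in PTZ+Q808 and 33.9 to 34.4 in control libraries without them. With 2 or 3 libraries a group, 0 members were called in either subset in limma.

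Levels of other markers in this comparison were as follows. Of 12 immediate early genes, which neuronal activity induces, 12 had positive values and 3 were called, and their summed level was 336 to 1545 FPKM in PTZ+Q808, 391 to 1681 in PTZ and 185 to 389 in control. Of 8 meningeal markers 8 had positive values (sums of 89.0 to 262 FPKM in PTZ+Q808, 90.1 to 315 in PTZ and 71.2 to 142 in control). Of 6 oligodendrocyte markers 0 had positive values (sums of 2532 to 4804 FPKM in PTZ+Q808, 3638 to 5419 in PTZ and 3477 to 6904 in control). Of 9 tested choroid plexus markers 7 had positive values, with sums of 342 to 7042 FPKM in PTZ+Q808, 121 to 5508 in PTZ and 58.8 to 7344 in control. Of 9 tested striatal markers 0 had positive values (sums of 81.0 to 142 FPKM in PTZ+Q808, 70.2 to 111 in PTZ and 71.7 to 795 in control), and of 3 pituitary markers 2 had (3.06 to 687, 3.32 to 12.6 and 2.61 to 4.72 FPKM, in the same order). Astrocyte and microglia markers had 1 of 6 and 4 of 6 positive values. Otx2 of the choroid plexus list and Fshb of the pituitary list were at 0 in all libraries. None of the marker lists but the immediate early genes held a called gene. The part of these markers in the results was not tested. Without control 2 and PTZ+Q808 3 together, an alternative chosen after the data had been seen, 1 member (Eif2a) and 57 genes were called, while the log2 changes of the 5 members were 0.27 to 0.50, each above its value with all libraries (adjusted p 0.0491 to 0.088).

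The promoters of the called members are shown because these 5 transcripts were higher together. Sequences are from RefSeq (assembly GRCr8), as the 120 bases upstream of the annotated start, 5′ to 3′ on the strand of the gene. They lie at chr3:163855571-163855690 (minus strand) for Eif2s2, chr1:269919026-269919145 (minus strand) for Eif3a, chr3:129438595-129438714 (plus strand) for Eif3j, chr6:136410213-136410332 (plus strand) for Eif5 and chr2:144911240-144911359 (plus strand) for Eif2a. Capitals mark matches to the motifs named below, on either strand.
Eif2s2: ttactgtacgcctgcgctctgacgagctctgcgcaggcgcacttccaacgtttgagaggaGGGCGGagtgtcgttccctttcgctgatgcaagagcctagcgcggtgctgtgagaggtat
Eif3a: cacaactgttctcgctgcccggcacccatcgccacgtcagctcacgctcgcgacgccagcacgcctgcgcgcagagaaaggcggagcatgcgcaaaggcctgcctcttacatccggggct
Eif3j: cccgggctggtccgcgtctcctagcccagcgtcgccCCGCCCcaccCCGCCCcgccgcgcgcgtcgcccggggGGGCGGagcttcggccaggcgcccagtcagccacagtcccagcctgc
Eif5: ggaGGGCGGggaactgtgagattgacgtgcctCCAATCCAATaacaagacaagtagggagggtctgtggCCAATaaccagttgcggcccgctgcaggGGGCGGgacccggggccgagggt
Eif2a: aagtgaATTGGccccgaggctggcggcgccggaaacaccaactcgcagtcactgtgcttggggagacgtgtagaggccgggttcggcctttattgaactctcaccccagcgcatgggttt

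In these windows the GC box was found for Eif2s2, Eif3j and Eif5, the CCAAT box for Eif5 and Eif2a, and none of the 6 motifs for Eif3a. The search itself covered 250 bases upstream of the start, on both strands, and none of the 6 motifs contains another. Of the 62 members 56 had a promoter in the table. The other 6 were Eef1d, Eif3e, Eif3h, Eif4b, Eif4e3 and Eif4ebp1. The ETS core CCGGAAG was present in 20 of 56 member promoters (35.7%), 14.6% of the promoters of 10234 tested genes and 7.74% of all 27457 promoters. The E-box CACGTG was present in 10 members (17.9%, 8.24% of tested genes and 5.79% of all). The GC box GGGCGG was present in 38 (67.9%, 59.4% and 32.4%, in that order), CCAAT in 15 (26.8%, 35.1% and 34.3%), TATAAA in 3 (5.36%, 6.19% and 13.1%) and the cyclic AMP response element TGACGTCA in 1 (1.79%, 2.87% and 1.7%). Of the 5 called members, 4 held a GC box in the longer window (Eif2s2, Eif3j, Eif5 and Eif2a), 2 a CCAAT box and 1, Eif2a, an ETS core. These are matches of letters and say nothing of binding.

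The eIF2 complex, which carries the initiator tRNA, had positive log2 changes for all 3 subunits in each of the 3 comparisons, with 1 of the 3, Eif2s2, called in PTZ+Q808 versus control. The counts of positive values were the same under the 3 other scalings. The values in PTZ+Q808 versus control are the sums of those in the other 2 comparisons, so their sign follows where both are positive. The median over the 3 was 0.27 in PTZ+Q808 versus control, 0.13 in PTZ+Q808 versus PTZ and 0.22 in PTZ versus control. Eif2s1, the alpha subunit whose phosphorylation slows initiation, had 32, 36.5, 33.7, 34.9 and 35 FPKM in PTZ+Q808, 32.4, 32.4, 28.6, 33.6 and 39.7 FPKM in PTZ and 28.4, 28, 28.2 and 28.8 FPKM in control. The 4 control values were close together and below every PTZ+Q808 library, and PTZ 3 was the only PTZ library in the control range. Its log2 change was 0.27 ± 0.0723 (SE, adjusted p = 0.0594) in PTZ+Q808 versus control and 0.22 ± 0.0723 (SE, adjusted p = 0.483) in PTZ versus control, so neither passed, and 0.05 (adjusted p = 0.937) in PTZ+Q808 versus PTZ. In PTZ+Q808 versus control it was called higher in 5 of the 30 alternatives, namely median-of-ratios scaling, the fit of these 2 groups alone, weights per library, and without PTZ 3 or PTZ 5. The log2 changes of the gamma subunit Eif2s3 were each smaller than their SE. They were 0.17 ± 0.193 (SE) in PTZ+Q808 versus control, 0.13 ± 0.182 in PTZ+Q808 versus PTZ and 0.05 ± 0.193 in PTZ versus control. Eif2s3 is described with its Y-linked copy further on.

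The 4 eIF2 alpha kinases did not pass in any comparison. Eif2ak3 (PERK, which senses endoplasmic reticulum stress) had 6.09, 5.62, 6.06, 6.68 and 6.05 FPKM in PTZ+Q808, 6.94, 6.3, 6.61, 6.29 and 6.57 FPKM in PTZ and 6.43, 6.61, 6.89 and 6.73 FPKM in control. Eif2ak4 (GCN2, which senses uncharged tRNA) had 3.6, 2.75, 3.98, 3.52 and 3.31 FPKM in PTZ+Q808, 4.2, 3.9, 3.41, 3.36 and 3.48 FPKM in PTZ and 3.55, 3.92, 3.86 and 4.34 FPKM in control. The groups overlapped for both, with log2 changes against control of -0.11 ± 0.0556 (SE, adjusted p = 0.269) and -0.16 ± 0.0882 (SE, adjusted p = 0.34) in PTZ+Q808. Eif2ak1 (HRI, the haem-regulated kinase) was the most abundant of the 4, with 29.7, 28.8, 27.3, 30.7 and 27.4 FPKM in PTZ+Q808, 30.8, 29.3, 30.4, 26.5 and 29.7 FPKM in PTZ and 31.6, 29.8, 31 and 28.5 FPKM in control, and its groups overlapped as well (-0.07 ± 0.0549, SE, adjusted p = 0.524, in PTZ+Q808 versus control). Eif2ak2 (PKR, activated by double-stranded RNA) had 3.7, 3.87, 4.85, 3.21 and 3.86 FPKM in PTZ+Q808, 3.4, 3.79, 3.05, 3.4 and 3.16 FPKM in PTZ and 3.42, 3.35, 2.83 and 2.9 FPKM in control. It was the one kinase with a positive value, 0.24 ± 0.0914 (SE, adjusted p = 0.153) in PTZ+Q808 versus control, 0.16 (adjusted p = 0.828) in PTZ+Q808 versus PTZ and 0.08 (adjusted p = 0.842) in PTZ versus control. The highest Eif2ak2 value was that of PTZ+Q808 3, the library with pituitary transcripts.

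The 5 subunits of eIF2B, the exchange factor that recharges eIF2, had 1 positive value of 5 in PTZ+Q808 versus control, 0 of 5 in PTZ+Q808 versus PTZ and 1 of 5 in PTZ versus control, and 0 were called. These counts were the same under the 3 other scalings. In PTZ+Q808 versus control the log2 changes were -0.15 (adjusted p = 0.263) for Eif2b4, -0.13 (adjusted p = 0.384) for Eif2b1, -0.12 (adjusted p = 0.27) for Eif2b2, -0.10 (adjusted p = 0.323) for Eif2b5 and 0.06 (adjusted p = 0.716) for Eif2b3. Eif2b5, the catalytic subunit, had 14.7, 15.4, 14, 15.1 and 14.3 FPKM in PTZ+Q808, 15.9, 14.5, 16.3, 14.3 and 16.2 FPKM in PTZ and 15.5, 14.7, 16.3 and 16.9 FPKM in control. Its 3 groups overlapped.

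Around the start codon, where Eif5 and Eif2a were called, Eif1b had negative values in all 3 comparisons and did not pass. Eif1b encodes a close relative of eIF1 and had 102, 127, 102, 115 and 115 FPKM in PTZ+Q808, 122, 108, 117, 132 and 133 FPKM in PTZ and 138, 134, 136 and 136 FPKM in control. Every PTZ+Q808 and every PTZ library was below every control library, where the 4 values were nearly equal. The log2 change was -0.28 ± 0.0726 (SE, adjusted p = 0.0537) in PTZ+Q808 versus control, just short of the threshold, -0.13 ± 0.0684 (SE, adjusted p = 0.828) in PTZ+Q808 versus PTZ and -0.15 ± 0.0726 (SE, adjusted p = 0.616) in PTZ versus control. It was called lower with a minimum FPKM of 5, an equal total per library, quantile normalization, weights per library, and without PTZ 2 or PTZ+Q808 2. Its log2 change was negative in all 30 alternatives. Eif1 itself was 289 to 339 FPKM in PTZ+Q808, 284 to 365 in PTZ and 303 to 321 in control (-0.03, adjusted p = 0.875, in PTZ+Q808 versus control). The ratio of Eif1b to Eif1 was 0.342 to 0.395 in PTZ+Q808, 0.361 to 0.415 in PTZ and 0.416 to 0.45 in control. The eIF1A genes Eif1a and Eif1ax had 0.34 (adjusted p = 0.0983) and 0.06 (adjusted p = 0.55), and Eif1ad and Eif2d, a factor of ribosome recycling and reinitiation, had -0.08 (adjusted p = 0.528) and -0.11 (adjusted p = 0.501).

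Of the 13 eIF3 subunits 7 had positive log2 changes in PTZ+Q808 versus control, 2 were called (Eif3a and Eif3j), and the median was 0.04. The count was 7 under each of the other scalings. Among the eIF3 members not called Eif3e had the largest log2 difference there. Eif3e was 37.7 to 52.4 FPKM in PTZ+Q808, 30.3 to 45.9 in PTZ and 28.8 to 36.5 in control, so that PTZ+Q808 and control did not overlap (0.46 ± 0.12, SE, adjusted p = 0.0544, in PTZ+Q808 versus control, 0.25, adjusted p = 0.776, in PTZ+Q808 versus PTZ and 0.20, adjusted p = 0.689, in PTZ versus control). It was called higher in 7 of the 30 alternatives, namely a minimum FPKM of 5, an equal total per library, weights per library, and without control 2, PTZ 3, PTZ 5 or PTZ+Q808 4. Eif3m was 48.1 to 63.5 FPKM in PTZ+Q808, 41.1 to 56.7 in PTZ and 39.3 to 50.1 in control (0.30, adjusted p = 0.117, in PTZ+Q808 versus control). In yeast and human eIF3, Eif3b is a core subunit that binds Eif3a, and its values here were not higher. It had 31.9, 38.1, 34.2, 34.3 and 33.5 FPKM in PTZ+Q808, 37.7, 35.3, 34.2, 40.4 and 37.1 FPKM in PTZ and 37.4, 40.01, 38.5 and 37.3 FPKM in control. The lowest values were in PTZ+Q808, with overlap by PTZ+Q808 2 (-0.15 ± 0.0582, SE, adjusted p = 0.154, in PTZ+Q808 versus control, -0.10, adjusted p = 0.828, in PTZ+Q808 versus PTZ and -0.05, adjusted p = 0.833, in PTZ versus control). In PTZ+Q808 versus control the values of Eif3d, Eif3f, Eif3g, Eif3i, Eif3k and Eif3l were between -0.06 and 0.04, and that of Eif3c was 0.11 (adjusted p = 0.438).

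The eIF4 group holds the genes of cap binding and unwinding along with relatives by name, and 0 of its 11 members were called in any comparison. Eif4a2, the more abundant of the eIF4A helicase genes in these libraries, had 309, 384, 315, 306 and 336 FPKM in PTZ+Q808, 268, 293, 271, 333 and 345 FPKM in PTZ and 257, 282, 284 and 262 FPKM in control. PTZ+Q808 and control did not overlap (0.28 ± 0.087, SE, adjusted p = 0.0911). Eif4a1 had 157, 170.03, 161, 148 and 175 FPKM in PTZ+Q808, 143, 146, 135, 189 and 154 FPKM in PTZ and 143, 143, 148 and 136 FPKM in control. It showed the same order of groups with a smaller log2 change of 0.18 ± 0.0824 (SE, adjusted p = 0.221), and PTZ 4 was its highest library. The ratio of Eif4a2 to Eif4a1 was 1.92 to 2.26 in PTZ+Q808, 1.76 to 2.25 in PTZ and 1.79 to 1.97 in control.

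Eif4e, the cap-binding subunit itself, had 27.2, 30.1, 28.4, 27.4 and 31.8 FPKM in PTZ+Q808, 24.7, 26, 23.8, 28.8 and 28.7 FPKM in PTZ and 26, 25.6, 25.1 and 23.9 FPKM in control. Its lowest PTZ+Q808 library was above its highest control library, and the log2 change was 0.20 ± 0.0654 (SE, adjusted p = 0.108) in PTZ+Q808 versus control and 0.06 (adjusted p = 0.818) in PTZ versus control. Eif4e3, a divergent cap-binding relative, had 4.36, 5.29, 4.37, 4.8 and 4.82 FPKM in PTZ+Q808, 4.93, 4.5, 5.39, 5.14 and 5.16 FPKM in PTZ and 6.65, 5.9, 4.63 and 6.8 FPKM in control. Control 3 lay in the PTZ+Q808 range while the other 3 controls were higher (-0.28 ± 0.0922, SE, adjusted p = 0.106, in PTZ+Q808 versus control, -0.21 ± 0.0922, SE, adjusted p = 0.594, in PTZ versus control). Eif4g1, the main eIF4G scaffold, had 26.7, 24.6, 26.6, 28.5 and 25.7 FPKM in PTZ+Q808, 30.5, 27.5, 24.6, 22.4 and 23.9 FPKM in PTZ and 28.2, 26.1, 26.4 and 31 FPKM in control. The groups overlapped, with log2 changes of -0.07 (adjusted p = 0.655) in PTZ+Q808 versus control and -0.12 (adjusted p = 0.73) in PTZ versus control. For Eif4b, Eif4h, Eif4g2, Eif4g3, Eif4a3 and Eif4e2 the values in PTZ+Q808 versus control were between -0.05 and 0.09. The group's median was -0.00 with 5 of 11 positive, and the sign of the median turned with the scaling (8 of 11 positive and 0.01 under median-of-ratios scaling).

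The eIF4E-binding proteins and the eIF4E transporter hold eIF4E back from eIF4G. Their 4 transcripts had 0 positive values of 4 in PTZ+Q808 versus control and in PTZ+Q808 versus PTZ, 2 of 4 in PTZ versus control, and 0 were called. These counts were the same under the 3 other scalings. Eif4ebp1 had 8.38, 7.48, 7.3, 7.18 and 8.43 FPKM in PTZ+Q808, 7.9, 8.1, 9.54, 8.1 and 7.11 FPKM in PTZ and 9.26, 7.89, 7.86 and 9.36 FPKM in control. Eif4ebp2, the main eIF4E-binding protein of brain, had 11.2, 7.31, 11, 11.3 and 8.72 FPKM in PTZ+Q808, 12, 11.3, 12.2, 7.93 and 8.16 FPKM in PTZ and 11.4, 12.3, 10.2 and 12.3 FPKM in control. Groups overlapped for both (-0.13 ± 0.0822, SE, adjusted p = 0.392, and -0.22 ± 0.144, SE, adjusted p = 0.416, in PTZ+Q808 versus control), and Eif4ebp2 was lowest in PTZ+Q808 2, PTZ 4, PTZ 5 and PTZ+Q808 5. Eif4ebp3 had 3.24, 3.6, 2.83, 3.22 and 3.56 FPKM in PTZ+Q808, 4.07, 2.72, 5.33, 5.67 and 3.32 FPKM in PTZ and 3.35, 3.6, 4.39 and 3.52 FPKM in control. PTZ 3 and PTZ 4 stood above the rest, and the log2 change was -0.25 ± 0.139 (SE, adjusted p = 0.831) in PTZ+Q808 versus PTZ. Eif4enif1, the eIF4E transporter, had -0.03 (adjusted p = 0.846) in PTZ+Q808 versus control.

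Subunit joining ends initiation, and eIF5A then helps the ribosome through difficult peptide bonds. Eif5b, the GTPase of subunit joining, was 13 to 18.8 FPKM in PTZ+Q808, 11.8 to 16 in PTZ and 9.4 to 12.5 in control, with no overlap between PTZ+Q808 and control (0.37 ± 0.111, SE, adjusted p = 0.0839) and 0.24 (adjusted p = 0.608) in PTZ versus control. Its highest library, PTZ+Q808 2 at 18.8 FPKM, stood apart from the others. Eif5a, the ubiquitous form, had 219, 249.995, 223, 204 and 238 FPKM in PTZ+Q808, 225, 209, 225, 262 and 223 FPKM in PTZ and 238, 227, 239.6 and 234 FPKM in control. Eif5a2 had 18.2, 15.3, 16.8, 17.1 and 16.4 FPKM in PTZ+Q808, 15.8, 16.2, 15.5, 17.2 and 18.1 FPKM in PTZ and 14.6, 15.8, 14.9 and 15 FPKM in control. Both overlapped between groups, with -0.05 ± 0.0683 (SE, adjusted p = 0.719) for Eif5a and 0.14 ± 0.0584 (SE, adjusted p = 0.185) for Eif5a2 in PTZ+Q808 versus control, and 0.13 (adjusted p = 0.611) for Eif5a2 in PTZ versus control. Eif6, which keeps the large subunit from joining early, was -0.06 (adjusted p = 0.712) in PTZ+Q808 versus control.

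No eEF transcript passed. Of 10 members in the eEF1, eEF2 and methyltransferase groups 0 were called in any comparison. Eef1a1 had 908, 1091, 1012, 1020.4 and 1026 FPKM in PTZ+Q808, 1039.8, 1005, 919, 1068 and 998 FPKM in PTZ and 1083, 969, 937 and 993 FPKM in control. Eef1a2 had 436, 410.4, 423, 424 and 427 FPKM in PTZ+Q808, 427, 420.1, 492, 460.2 and 395 FPKM in PTZ and 431, 389.8, 516 and 454 FPKM in control. Eef2, the translocase, had 508, 459, 508, 478 and 476 FPKM in PTZ+Q808, 485, 469, 523, 515 and 468 FPKM in PTZ and 524, 483, 544 and 496 FPKM in control. All 3 overlapped between the groups. In PTZ+Q808 versus control the log2 change was 0.02 for Eef1a1 (95% confidence interval -0.12 to 0.16, adjusted p = 0.883), -0.07 for Eef1a2 (-0.24 to 0.09, 0.649) and -0.07 for Eef2 (-0.19 to 0.05, 0.482). In PTZ versus control the intervals were -0.13 to 0.16 for Eef1a1, -0.19 to 0.14 for Eef1a2 and -0.18 to 0.06 for Eef2.

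Eef2k, the calcium-dependent kinase that inactivates eEF2, had 5.7, 5.98, 6.62, 6.75 and 7.09 FPKM in PTZ+Q808, 7.33, 6.29, 6.95, 5.06 and 6.32 FPKM in PTZ and 6.25, 6.54, 5.64 and 7.08 FPKM in control. The 3 groups overlapped throughout, and the log2 change was 0.01 in PTZ+Q808 versus control (95% confidence interval -0.19 to 0.21, adjusted p = 0.966) and 0.01 in PTZ+Q808 versus PTZ (-0.18 to 0.20, 0.988). The exchange factor subunits of eEF1A had 0.12 (adjusted p = 0.394) for Eef1b2, -0.12 (adjusted p = 0.382) for Eef1d and -0.03 (adjusted p = 0.842) for Eef1g in PTZ+Q808 versus control, and Eef1e1, a scaffold of the tRNA synthetase complex, had 0.13 (adjusted p = 0.354). The methyltransferases Eef1akmt1 and Eef2kmt had -0.03 (adjusted p = 0.835) and -0.13 (adjusted p = 0.587). The ratio of Eef1a2 to Eef1a1 was 0.376 to 0.480 in PTZ+Q808, 0.396 to 0.535 in PTZ and 0.398 to 0.550 in control.

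**Figure D3:**
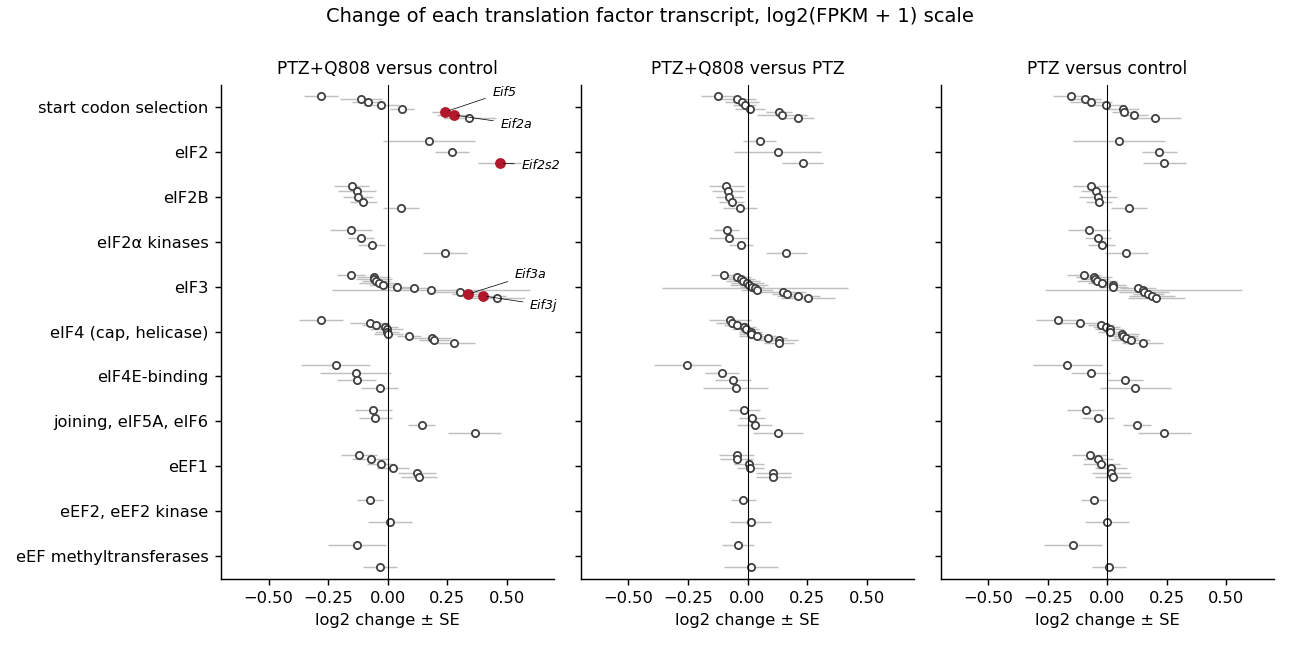
Log2 change with its standard error for each of the 62 members by role, with 1 panel for each of the 3 comparisons (log2(FPKM + 1) scale, filled red points called at an adjusted p under 0.05). The 5 called members lie to the right in the first panel, 0 are called in the other 2, and Eef1a1, Eef1a2 and Eef2 lie close to 0 in all 3.

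PTZ+Q808 versus PTZ asks what differed when Q808 was given with the convulsant, and no translation factor passed. In limma 0 of 62 members were called, beside 0 of 12744 genes (0%), and 6 members had an unadjusted p under 0.05 (9.68%, against 6.14% of all genes), all of them higher. In all genes tested 3.11% were higher and 3.04% lower at that p. The 3 with the smallest p in the higher direction were Eif2a (0.21, adjusted p = 0.76), Eif2s2 (0.23, adjusted p = 0.76) and Eif3a (0.17, adjusted p = 0.76). In the lower direction they were Eif1b (-0.13, adjusted p = 0.828), Eif3b (-0.10, adjusted p = 0.828) and Eif4ebp3 (-0.25, adjusted p = 0.831). The groups overlapped for all 62 members, where PTZ+Q808 was above PTZ without overlap for 0.447% of all genes and below it for 0.33%. The median log2 change was 0.00, with 31 of 62 positive, and the median of all genes was -0.00. The 95% confidence interval was 0.05 to 0.41 for Eif2s2, 0.03 to 0.30 for Eif3a and -0.10 to 0.20 for Eif2s1.

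PTZ versus control asks what differed after the convulsant alone, and again no translation factor passed. In limma 0 of 62 members were called, beside 4 of 12744 genes (0.0314%), and 6 members had an unadjusted p under 0.05 (9.68%, against 8.11% of all genes). Of these, 5 were higher (8.06% of members, against 4.2% of all genes) and 1 lower (1.61%, against 3.92%). The smallest p in the higher direction were those of Eif2s1 (0.22, adjusted p = 0.483), Eif2s2 (0.24, adjusted p = 0.551) and Eif3a (0.17, adjusted p = 0.564). In the lower direction they were those of Eif4e3 (-0.21, adjusted p = 0.594), Eif1b (-0.15, adjusted p = 0.616) and Eif4g1 (-0.12, adjusted p = 0.73). PTZ lay below control without overlap for 1 member, Eif1b (1.61%, against 1.59% of all genes), and above it for 0 (1.44% of all genes). The median log2 change was 0.01 with 32 of 62 positive, against -0.01 for all genes. The comparisons with control share the 4 control libraries, and the comparisons that involve PTZ share the 5 PTZ libraries, so their values are not independent of each other.

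Of the 5 members called in PTZ+Q808 versus control, each had a positive value in both other comparisons. For Eif2s2 the log2 change was 0.23 in PTZ+Q808 versus PTZ and 0.24 in PTZ versus control, and for Eif3a it was 0.17 and 0.17. Eif3j had 0.21 and 0.19, and Eif5 0.13 and 0.11. For Eif2a the values were 0.21 and 0.06. By construction the 2 values of a gene add up to its change in PTZ+Q808 versus control. Since the 5 were picked by that sum, positive values in both are favoured and are no separate evidence.

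PTZ+Q808 2 stood apart among the libraries. It was the highest of the 14 for 22 of 62 members (35.5%), against 13.2% of all genes tested, and it had the largest sum of FPKM (419358, against 383126 to 406328 in the others) and the lowest relative depth. Without it 3 members were called in PTZ+Q808 versus control, namely Eif2s2 and Eif3a higher and Eif1b lower, beside 347 genes. The part of this library's depth in the result was not tested.

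Some members have further copies listed in the files. Eif2s3, the X-linked gamma subunit of eIF2, had 30.8, 34.2, 46.6, 31.1 and 48.3 FPKM in PTZ+Q808, 28.7, 28.3, 41.2, 48.3 and 29 FPKM in PTZ and 28.8, 26.3, 38.8 and 40.8 FPKM in control. Its Y-linked copy Eif2s3y had 26.9, 33.4, 0.324, 26.2 and 0.549 FPKM in PTZ+Q808, 20.9, 23.7, 0.205, 0.132 and 27.3 FPKM in PTZ and 20.9, 22.7, 0.0328 and 0.0644 FPKM in control. The libraries fell into 2 sets that did not overlap. In the 8 with Y-linked transcripts Eif2s3 was 26.3 to 34.2 FPKM and Eif2s3y 20.9 to 33.4, and in the 6 without them Eif2s3 was 38.8 to 48.3 FPKM and Eif2s3y 0.0328 to 0.549. The sum of both was 49.0 to 67.6 FPKM in the 8 libraries and 38.8 to 48.9 in the 6. Without a term for this split the log2 difference of Eif2s3 was 0.17 ± 0.193 (SE, adjusted p = 0.662) in PTZ+Q808 versus control, so it was not called. With the term it was called higher, at 0.23 ± 0.0555 (SE, adjusted p = 0.0367), and with both copies summed the change was 0.31 ± 0.113 (SE, adjusted p = 0.14). Among libraries with Y-linked transcripts it was 30.8 to 34.2 FPKM in PTZ+Q808, 28.3 to 29.0 in PTZ and 26.3 to 28.8 in control. Among those without them it was 46.6 to 48.3 FPKM in PTZ+Q808, 41.2 to 48.3 in PTZ and 38.8 to 40.8 in control. The labels do not say how fragments were divided between the copies.

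Eif3h, encoding a subunit of eIF3, varied most of all members. It had 18.9, 18.4, 17.3, 46.7 and 52.1 FPKM in PTZ+Q808, 30.1, 56.2, 17.3, 20.8 and 21.7 FPKM in PTZ and 40.4, 14.9, 32.2 and 16.6 FPKM in control. High values, of 30.1 to 56.2 FPKM, came in 2 PTZ+Q808, 2 PTZ and 2 control libraries, and the other 8 read 14.9 to 21.7 FPKM. A second gene annotated as the same subunit, LOC108348062, had 6.91, 5.41, 5.48, 2.46 and 6.51 FPKM in PTZ+Q808, 1.14, 4.92, 6.77, 5.73 and 3.43 FPKM in PTZ and 4.95, 7.98, 4.55 and 4.26 FPKM in control. The sum of both was 20.8 to 61.1 FPKM, so the split stayed. It did not follow the groups (0.18 ± 0.415, SE, adjusted p = 0.844, in PTZ+Q808 versus control, 95% confidence interval -0.71 to 1.07) or the presence of Y-linked transcripts, since 4 of the 6 high libraries had them and 2 had not. Its value is uncertain where fragments could be assigned to either copy. For Eif4g1 a like gene, LOC100912571, was 2.33 to 11.3 FPKM over the libraries, highest in PTZ 3 and PTZ 1, and for Eif5 a similar gene, RGD1564400, was 0.598 to 1.59 FPKM.

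**Figure D4:**
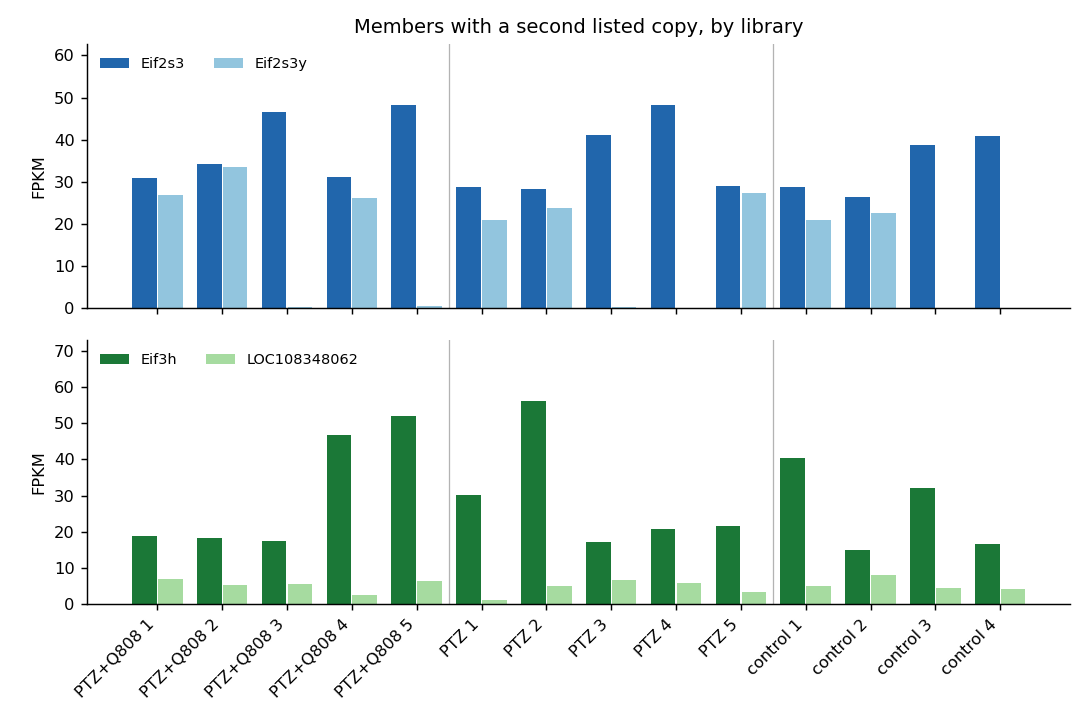
FPKM of Eif2s3 with its Y-linked copy Eif2s3y (top) and of Eif3h with LOC108348062 (bottom) in each PTZ+Q808, PTZ and control library, as bars. Eif2s3 is 38.8 to 48.3 FPKM where Eif2s3y is near 0 and 26.3 to 34.2 FPKM where it is present, while Eif3h runs from 14.9 to 56.2 FPKM, with high and low libraries in each group.

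Genes that act with the translation factors were counted from lists outside the members. In PTZ versus control and in PTZ+Q808 versus PTZ 0 genes of the 7 lists were called. In PTZ+Q808 versus control 5 were called, all higher. The number tested is given for each list below, and 1.94% of all genes were called higher. Without the 3 libraries low in Ttr 0 of all genes were called in this comparison, so these 5 calls were lost too. With the replicate block 4 of all genes were called. Of 22 tested genes of mTORC1 signalling 8 were positive (median -0.05) and 1 was called. This was Rps6kb1, which encodes the S6 kinase that mTORC1 activates, at 7.36 to 8.30 FPKM in PTZ+Q808, 7.12 to 8.07 in PTZ and 5.25 to 6.84 in control (0.33 ± 0.0694, SE, adjusted p = 0.0276). Both PTZ+Q808 and PTZ lay above control for Rps6kb1 in every library, with a log2 change in PTZ versus control of 0.29 (adjusted p = 0.306). Of 22 regulators at the cap and the poly(A) tail 13 were positive and 1 was called, Cpeb4, encoding an activity-linked regulator of poly(A) tails, at 22.3 to 29.0 FPKM in PTZ+Q808, 24.2 to 28.1 in PTZ and 20.4 to 23.3 in control (0.29 ± 0.0708, SE, adjusted p = 0.0413).

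Of 10 genes of termination and recycling 5 were positive (median -0.01) and 2 were called. Etf1, the release factor that reads stop codons, was 28.8 to 38.8 FPKM in PTZ+Q808, 27.2 to 37.2 in PTZ and 25.1 to 28.5 in control (0.39 ± 0.0956, SE, adjusted p = 0.0460). Abce1, which splits the ribosome after termination, was 27.9 to 32.0 FPKM in PTZ+Q808, 25.9 to 28.8 in PTZ and 24.2 to 26.7 in control (0.23 ± 0.0553, SE, adjusted p = 0.0409). Of 10 mitochondrial translation factors 7 were positive and 1 was called, the initiation factor gene Mtif2, at 5.43 to 6.93 FPKM in PTZ+Q808, 3.83 to 4.96 in PTZ and 4.06 to 4.30 in control (0.39 ± 0.0769, SE, adjusted p = 0.0230). Mtif2 had no overlap of PTZ+Q808 with either other group, and its change in PTZ+Q808 versus PTZ was 0.32 (adjusted p = 0.76). In the same comparison with control 0 were called of 18 genes of the integrated stress response (12 positive, median 0.04), 0 of 22 cytosolic tRNA synthetases (12 positive, median 0.01) and 0 of 7 genes of hypusine and diphthamide synthesis, the modifications of eIF5A and eEF2 (1 positive, median -0.07).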

How the data were processed

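RNA from rat hippocampus was sequenced in 14 libraries (PTZ+Q808, 5; PTZ, 5; control, 4). The deposited values are FPKM per gene, 1 table per library. HISAT2 and Bowtie2, StringTie and Cufflinks, HTSeq, SAMtools, Trimmomatic and DESeq are named in the submitters' processing notes, without versions or roles, and the genome build is not given in the sources used here. Fragment totals are unknown. FPKM summed to 383126 to 419358 per library, and steps between low values gave relative depths of 0.858 to 1.04, so no counting interval is given.

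FPKM were taken as log2(FPKM + 1), and fold changes on this scale understate those of low genes. The 12744 genes with at least 1 FPKM in at least 4 libraries were fitted in limma 3.58.1 (R 4.3.3) with all 3 groups, a trended prior and 11 residual degrees of freedom. Tests were two-sided, with Benjamini-Hochberg adjustment over all genes and a threshold of 0.05. The members, lists and alternatives were chosen with earlier results of these data known. Values per library are given for members called in a comparison, the 3 with the smallest p in each direction of each comparison, and 19 members of known roles. The fit was tested on simulated data for PTZ versus control with 12744 genes, and recovered 70% of 100 genes changed by 0.5 (log2) and 90% of 100 changed by 1, with 9 false calls. Genes were drawn independently and only PTZ libraries were changed, so differences shared by many genes of a library were not simulated. Recovery and false calls in PTZ+Q808 versus control were not tested. The called members changed there by 0.24 to 0.47, less than the smallest change simulated. Alternatives covered the pseudocount, filter, scaling, samples in the fit, prior, weights, replicate block, a term for Y-linked transcripts and left-out libraries. Summed copies, fits within libraries with or without Y-linked transcripts, and leaving out control 2 with PTZ+Q808 3 were chosen after seeing the data. Figures were drawn with matplotlib 3.10.9.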

Additional observations from a re-analysis of the deposited data

Results flagged for a closer look

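In 5 of 186 groups of members' values (2.69%) 1 library stood far from the others of its group, where chance gives about 1 in 20. PTZ+Q808 2 was the high library for Eif4h (192.0 FPKM), Eef1d (18.9 FPKM) and Eif5b (18.8 FPKM). Control 3 was high for Eif3k (105.0 FPKM), and PTZ 4 was low for Eif4enif1 (6.96 FPKM). None of these 5 members was called in any comparison.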

How the results depend on the processing

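In PTZ+Q808 versus control 5 members were called. The count was 2 with no filter on low values, 11 with weights per library (9 higher and 2 lower), 0 without the 3 libraries low in Ttr, and 0 to 6 when each library was left out in turn. It was 1 without control 2 and PTZ+Q808 3, and 0 within the libraries with or without Y-linked transcripts. It was 4 to 7 under the other pseudocount, filter, scalings, prior, 2-group fit, Y-linked term and summed copies. Of 807 values of 27 named members under alternatives, 721 kept their side of the threshold, 73 lost a call, 13 gained one and 0 reversed a call. Over all 62 members calls were gained 22 times, by 7 members. In the other 2 comparisons 0 members were called under every alternative. The members' median ran from -0.05 to 0.01 in PTZ+Q808 versus control, from -0.03 to 0.01 in PTZ+Q808 versus PTZ and from -0.01 to 0.04 in PTZ versus control. The causes of these differences were not tested, and unknown fragment totals limit what can be said of members near 1 FPKM.

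With the replicate number as a replicate block 0 members and 4 genes were called in PTZ+Q808 versus control. Libraries with the same number did not deviate together (correlations of -0.280 to 0.143). No label says that a number marks a shared animal or day. The presence of Y-linked transcripts was the same in all 3 groups for replicates 1, 2 and 3, and differed between groups for replicates 4 and 5. Whether the numbers pair the libraries is thus unknown.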
